A study of Oryza sativa Japonica Group with 18 samples.

Results

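In rice shoots, 170 of 57258 probe sets stood at least 4-fold above wild type in both the gi and the pho2 knockout. A probe set is a group of short probes on an Affymetrix array, in most cases meant for 1 transcript. Members were chosen from the shoot signals alone. The group mean of log2(signal + 16) had to be at least 2 higher in gi shoot and at least 2 higher in pho2 shoot than in WT shoot, and all 6 mutant shoot arrays had to lie above all 3 WT shoot arrays. Without the second condition 174 probe sets would have qualified. The shoot values below therefore describe how the members were picked and carry no test. The root arrays played no part in the choice and are tested.

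The series compared wild type (WT, cultivar Nipponbare), an OsGIGANTEA knockout (gi) and an OsPHO2 knockout (pho2), the mutants also being labelled as of Nipponbare background. Root and shoot were sampled from 21-day-old plants, after 2 days of germination and 19 days of hydroponic culture with sufficient phosphate under a 12 h photoperiod, with 3 arrays in each of 6 groups. The labels name no allele, line number or hour of harvest, and they do not say whether replicates were separate plants or pools, so a p-value measures only the spread between these samples. Because RNA came from whole organs, fewer cells of a type and less RNA per cell cannot be told apart.

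GIGANTEA is a large plant protein known from the circadian clock and the photoperiodic control of flowering. PHO2 is a ubiquitin-conjugating enzyme that limits phosphate uptake and transfer to the shoot by promoting the removal of phosphate transport proteins. Genes that respond to jasmonate, a wound and defence hormone, are held down by JAZ repressors, whose own transcripts are induced by the hormone, while WRKY proteins are a plant family of transcription factors active in defence.

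GI signal was 7236, 7007 and 7393 in WT root and 1.36, 1.71 and 2.19 in gi root, 11521, 9868 and 10889 in WT shoot and 44.6, 5.43 and 14.6 in gi shoot, and 6835 to 8200 on the pho2 arrays, so the gi label held on every array. PHO2 was not analysed here, so the pho2 label was not checked on its own transcript. The median signal of all probe sets was 52.3 to 70.2 per array and the scaled mean of every array was close to 497. BioB controls, bacterial transcripts spiked in to follow hybridisation, averaged 32.4 to 55.4 in root and 592 to 941 in shoot. A level in root was therefore set beside one in shoot only as a description. Within shoot the BioB averages did not overlap between genotypes, at 874 to 941 in WT, 771.7 to 846.5 in gi and 592 to 673 in pho2. The part of this in the shoot levels of the members was not tested.

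Among the members, single arrays departed from their group mainly in WT root replicate 2 and gi shoot replicate 3. In WT root replicate 2, 13 members were at least 4-fold above both other WT root arrays, against 0 in WT root replicates 1 and 3. In gi shoot replicate 3, 9 members were at least 4-fold above and 15 at least 4-fold below both other gi shoot arrays, against 0 in gi shoot replicates 1 and 2. By the same 4-fold measure 3 members departed on WT shoot replicate 3, 3 on pho2 shoot replicate 1, 2 on gi root replicate 1 and 1 on gi root replicate 3, and 1 was lower on WT root replicate 2. Over all probe sets the order was different. There gi shoot replicate 1 departed most, with 292 probe sets higher and 95 lower. The same counts were 61 and 52 on gi shoot replicate 3 and 49 and 37 on WT root replicate 2. Without gi shoot replicate 3 the rule would have found 167 probe sets, of which 152 are among the 170. Root counts are given with and without WT root replicate 2.

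Of the 170 members, 115 pair with 1 gene, 1 with several and 54 with none, giving 102 genes. Only 15 of these carry a name other than a locus number, through 16 probe sets. For 10 genes more than 1 probe set met the rule. Another 32 probe sets of 24 member genes did not meet it, of which 10 were at least 2-fold higher in both mutant shoots (1.73% of all probe sets were) and 16 changed under 2-fold in both.

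The members were dim in WT shoot and moderately bright in all mutant shoots. Their median signal was 38.4, 47.7 and 46.5 on the WT shoot arrays, 498, 653 and 492 in gi shoot and 571, 520 and 564 in pho2 shoot. In log2 terms the median change was 2.79 in gi shoot (up to 7.55) and 3.01 in pho2 shoot (up to 6.27), while the median over all probe sets was 0.00 and -0.01. Both mutants were compared with the same WT arrays, so an error in those arrays enters both changes.

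In WT shoot, 126 members had a mean signal under 100, as had 60.8% of all probe sets. At the threshold, the nearest members by the smaller of their shoot changes were LOC4336875, LOC4345406 and LOC4343252, each at 2.01, and the nearest probe sets left out were LOC4324083 at 1.99, LOC4333923 at 1.97 and a probe set without a gene at 1.97. Nothing in the values separates members from non-members there.

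In root the members split into different patterns. In WT root the members' median signal was 331, 407 and 298, above that of every WT shoot array, and it was 621, 556 and 518 in gi root and 549, 445 and 505 in pho2 root. The heat map of members by array shows a large block that is bright in root, a block that is dark in both WT organs and lit in both organs of both mutants, and a block that is lit in WT root replicate 2 alone among WT arrays.

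**Figure D1:**
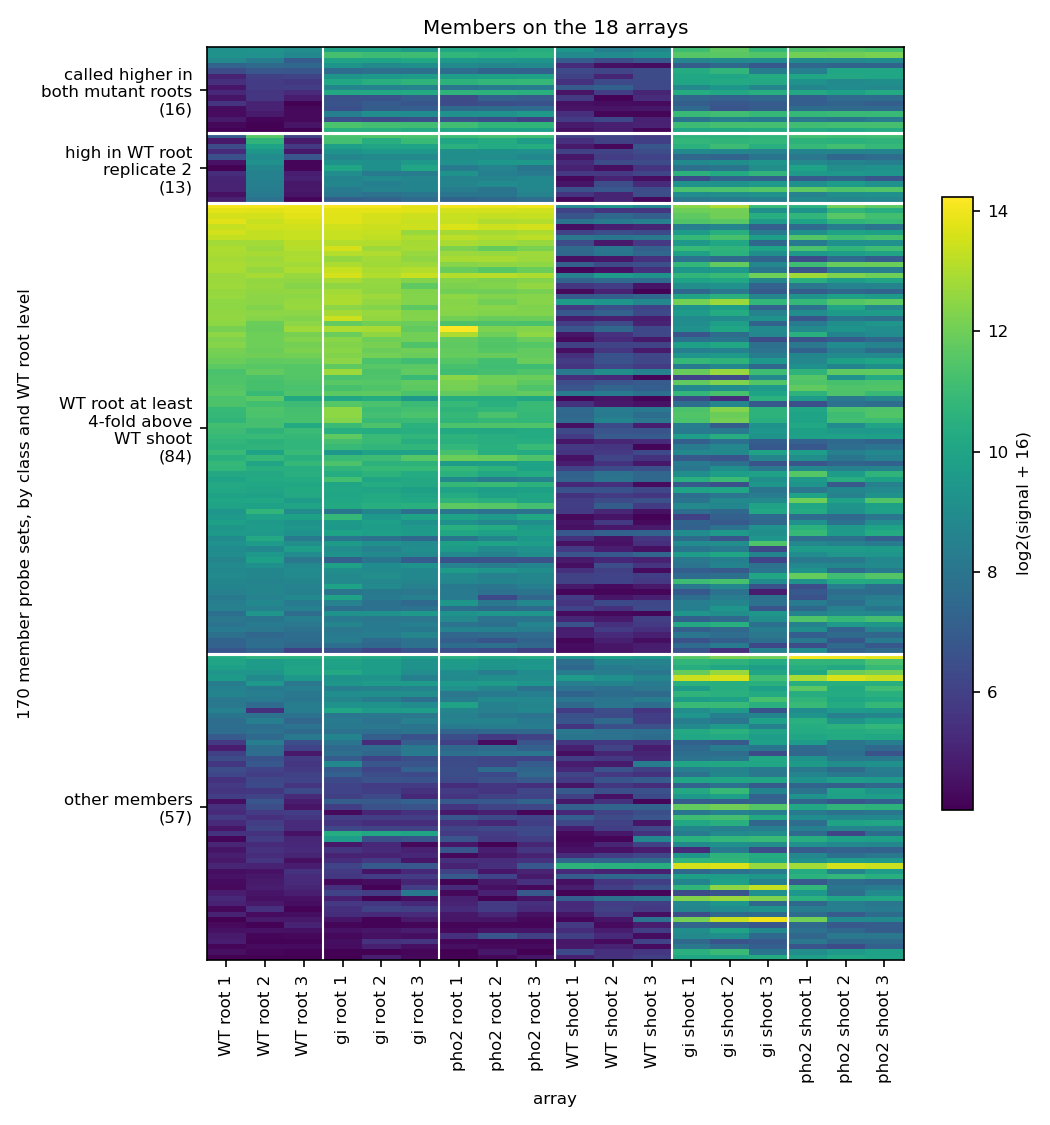
Signal of the 170 members (rows) on the 18 arrays (columns), as log2(signal + 16), grouped by root pattern and ordered within a group by WT root level. The blocks were set from root calls and WT levels, and the last block holds the members in none of the others. A member called higher in both mutant roots is placed in the first block, so the block of members at least 4-fold brighter in WT root than in WT shoot holds 84 of the 85; the 13 members of the second block are dark in WT root replicates 1 and 3 and bright in replicate 2.

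Many members were already bright in WT root. In 85 members every WT root array lay above every WT shoot array with a mean difference of at least 4-fold, against 8.93% of all probe sets. Across all members, the WT root arrays lay entirely above the WT shoot arrays in 97 (27% of all probe sets), entirely below in 17 (30.7%), and overlapped in 56. Since a low WT shoot signal was part of the rule, these shares follow in part from the choice. In 43 members all WT root arrays also lay above all 6 mutant shoot arrays, close to the 22.3% of all probe sets.

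The brightest members in WT root were LOC4326716, LOC4330177 and LOC4339617. LOC4326716 gave 17398, 16834 and 15904 in WT root, 420, 619 and 380 in WT shoot, 5442, 7793 and 1859 in gi shoot and 1484, 4150 and 3256 in pho2 shoot. LOC4330177 gave 14591, 13827 and 14884 in WT root, 53.1, 32.9 and 34.9 in WT shoot, 4023, 4325 and 537 in gi shoot and 623, 1676 and 1334 in pho2 shoot. In both genes the mutant shoots stayed far below the root, and gi shoot replicate 3 was the lowest gi shoot array.

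Over the 85 root-bright members the median signal was 1835, 1965 and 1823 in WT root, 2356, 1912 and 1714 in gi root and 1797, 1743 and 1797 in pho2 root. It was 39.7, 52.3 and 39.3 in WT shoot, 434, 487 and 397 in gi shoot and 553, 483 and 542 in pho2 shoot. The mutant shoot medians lay between those of WT shoot and root. The rule and the choice of these 85 fix part of that order, and root is set beside shoot only as a description. In 53 of the 85, gi shoot replicate 3 was the lowest of the 3 gi shoot arrays.

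Markers of root tissue were read on the same shoot arrays. Of 17 such genes, 12 were bright enough in shoot to be tested, and by limma 1 was called higher (none under quantile normalization or median centring) and 3 lower in gi shoot, 2 higher and 3 lower in pho2 shoot. Their summed signal was 11027 to 12685 in WT shoot, 9304 to 11204 in gi shoot and 11255 to 12641 in pho2 shoot, against 53454 to 56735 in WT root. Of the 17, 10 averaged under 100 in all 3 shoot groups. Lsi2, a silicon efflux transporter of root, averaged 2.24 in WT shoot, 9.83 in gi shoot and 5.63 in pho2 shoot against 8449 in WT root, and CASP1, a protein of the endodermal barrier, averaged 20.6, 24.3 and 37.4 against 3296. Others of the list were bright in shoot, with tom1 averaging 6557 in WT shoot, 7523 in gi shoot and 9011 in pho2 shoot and Lsi1, a silicon influx transporter, 2165, 1581 and 889. The part of root tissue in the shoot levels of the members was not tested. The 3' to 5' ratio of GAPDH is a sign of RNA integrity. Its log2 was 2.52 to 2.70 in WT shoot, 2.49 to 2.75 in gi shoot and 1.62 to 2.08 in pho2 shoot. For cyclophilin, read in the same way, it was 0.71 to 1.22, 0.92 to 1.71 and 1.09 to 1.23, overlapping between all genotypes. The part of RNA integrity in the shoot levels of the members was not tested.

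Root of each mutant was compared with WT root by limma over the 34355 probe sets bright enough to test, of which 150 are members; the other 20 members were too dim in root. A call is an adjusted p under 0.05 over all probe sets tested. In gi root 20 members (11.8%) were called higher and 2 (1.18%) lower, against 1.17% and 1.11% of all probe sets tested. In pho2 root 31 members (18.2%) were called higher and 15 (8.82%) lower, against 7.96% and 7.87%. These member shares are over all 170, whereas the background is over probe sets tested. Over the 150 members tested they were 13.3% and 1.33% in gi and 20.7% and 10% in pho2. A fit without the filter, of all 170 members and all 57258 probe sets, called 16 members higher (9.41%, background 0.479%) and 1 lower (0.588%, background 0.447%) in gi root, and 24 higher (14.1%, background 3.71%) and 13 lower (7.65%, background 3.74%) in pho2 root. The share called higher was above the background in each root with and without the filter. Under median centring the background turned to 0.707% higher and 1.41% lower in gi and 4.26% and 7% in pho2, with 17 members higher and 2 lower in gi and 25 higher and 12 lower in pho2. Median centring moved the median change of all probe sets tested from 0.03 to -0.07 in gi root and from -0.01 to -0.12 in gi shoot.

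Calls in both mutant roots, which share the WT root arrays, were higher for 16 members (9.41% of all members and 10.7% of those tested, against 0.742% of all probe sets tested) and lower for 2 (background 0.766%). The 3' to 5' ratio of GAPDH was 1.49 to 1.95 in WT root, 1.78 to 1.95 in gi root and 2.12 to 2.37 in pho2 root on the log2 scale, and its part in the root calls was not tested. A further 19 members were called higher and 13 lower in 1 mutant root, and 100 in neither. Over all 170 members the median root change was 0.24 in gi and 0.09 in pho2, against 0.03 and 0.02 over all probe sets. At least 4-fold higher means were seen in gi root for 24 members, of 84 probe sets in all, and in pho2 root for 19 members, of 92 in all.

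The number of calls depended on WT root replicate 2. Without that array 36 members were called higher in gi root and 43 in pho2 root (0.981% and 5.28% of all probe sets tested), and 32 were called higher in both (0.719%), of which 14 were among the 16 called in both with it. Calls lower were 3 in gi root and 16 in pho2 root without it (background 0.637% and 4.79%).

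Calls are also given by WT root level, as a description. Of 55 members with a mean WT root signal under 100, 35 were tested, and 12 were called higher in both roots. A member this dim in WT can pass the filter through bright mutant arrays and has little room to fall, so the direction of these calls follows in part from the filter. Among 57 members from 100 to under 1000, 13 were called higher and 4 lower in pho2 root, and 6 higher and 1 lower in gi root. Among 58 members at 1000 or more, 4 were called higher and 11 lower in pho2 root, and 1 higher and 1 lower in gi root. No share of all probe sets at the same WT root level stands beside these counts, so nothing is read from them. The 15 members called lower in pho2 root were all among the 85 root-bright ones, with changes of -2.23 to -0.29. The 20 members not tested were all outside the 85, and a member dim in WT root has little room to fall. No share of all root-bright probe sets stands beside this count, so nothing is read from it either.

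**Figure D2:**
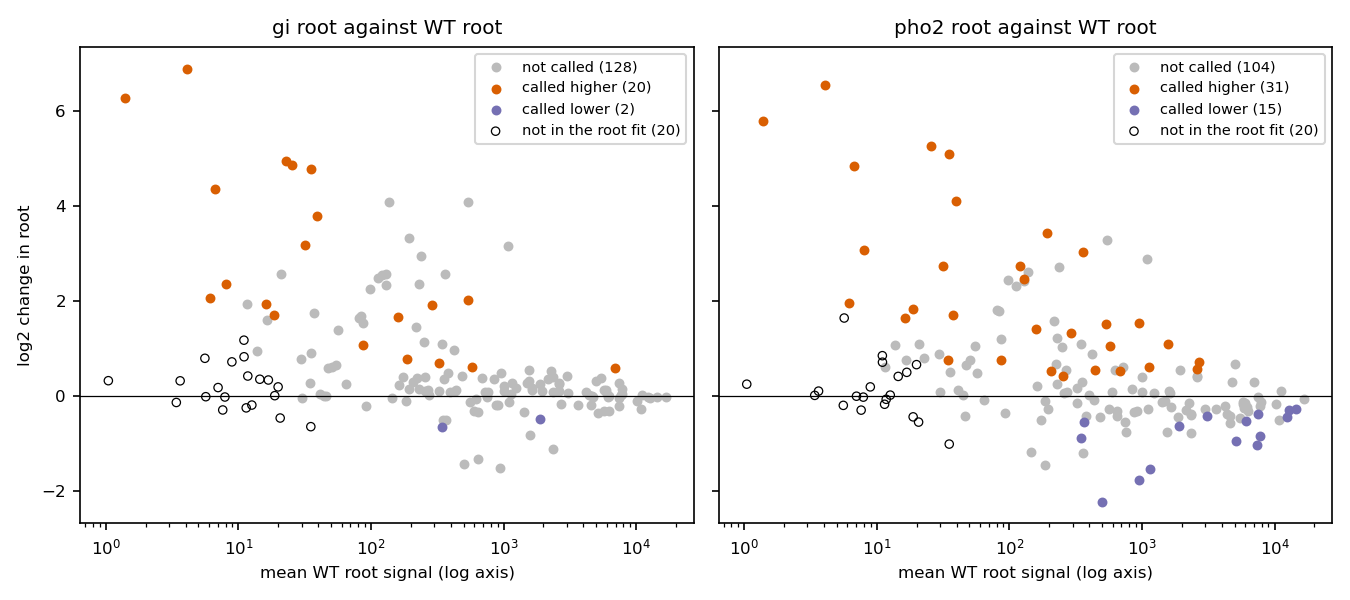
Log2 change in root (vertical) against the mean WT root signal (horizontal, log axis) for the 170 members, in gi (left) and pho2 (right); each point is a member, coloured by its limma call at an adjusted p under 0.05. The calls of higher signal lie mostly to the left. The 15 calls of lower signal in pho2 lie to the right of a WT root signal of 100. The WT root arrays enter both axes and a member dim in WT root has little room to fall, so nothing is read from this.

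The 16 members called higher in both mutant roots were mostly at or near background in WT. Their median signal was 19.1, 37.9 and 29.1 in WT root, 621, 606 and 626 in gi root and 642, 616 and 685 in pho2 root. In shoot it was 34.4, 31.5 and 21.3 in WT, 1042, 1055 and 835 in gi and 526, 716 and 785 in pho2. Of the 16, 12 had a mean WT root signal under 100, and 8 pair with a gene.

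LOC4325215 read 3.21, 1.25 and 7.79 in WT root, 2562, 2292 and 2174 in gi root and 2219, 1685 and 1663 in pho2 root, and 11.6, 14.7 and 16.8 in WT shoot, 2095, 2309 and 2296 in gi shoot and 2177, 2302 and 2388 in pho2 shoot. No mutant array read under 1663 and no WT array over 16.8, in either organ. The root change was 6.89 ± 0.15 (SE) in gi and 6.54 ± 0.15 in pho2 on the log2(signal + 16) scale, with limma adjusted p of 4.7e-09 and 5.9e-09.

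LOC4325213, its neighbour in the gene table, read 21.7, 32.7 and 22.1 in WT root, 1159, 1155 and 1226 in gi root and 1622, 1579 and 1463 in pho2 root. Its root change was 4.86 ± 0.12 in gi and 5.25 ± 0.12 in pho2 (limma adjusted p 8.2e-09 and 5e-09), and in shoot it went from 7.77, 44.3 and 18.2 in WT to 1280, 1086 and 1392 in gi and 1142, 937 and 1224 in pho2. The mutant groups overlapped in shoot and not in root.

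Rictpi2, which encodes a triosephosphate isomerase of glycolysis, was a member through 1 of its probe sets. That probe set read 600, 580 and 432 in WT root, 2415, 2052 and 2161 in gi root and 1714, 1481 and 1467 in pho2 root, with changes of 2.02 ± 0.13 and 1.52 ± 0.13 (limma adjusted p 2.3e-05 and 0.00012). In shoot it read 467, 482 and 549 in WT, 2941, 3115 and 2797 in gi and 4270, 4161 and 4614 in pho2. The gene's other and much brighter probe set averaged 18852 in WT root, 15047 in gi root and 13533 in pho2 root. In shoot it averaged 30790 in WT, 31014 in gi and 24136 in pho2, so the gene's probe sets disagree.

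Rictpi2, LOC4325213 and LOC4325215 lie in a run on chromosome 1. In the rice gene table (RefSeq, ASM3414082v1), 7 pairs among the 102 member genes lie within 5 genes of each other, and 2 of the pairs make up this run. How many such pairs an equal number of other genes would give was not counted, so nothing is read from the number. LOC4325209, 2 genes before Rictpi2, just missed the rule with shoot changes of 2.05 in gi and 1.88 in pho2, and its root means were 373 in WT, 1488 in gi and 1374 in pho2. LOC4325212, between Rictpi2 and LOC4325213, moved little: its brightest probe set averaged 3585 in WT shoot, 3186 in gi shoot and 3544 in pho2 shoot. The other pairs are LOC4349181 and LOC4349190 on chromosome 10, LOC9268937 and APG8D on chromosome 11, LOC4352855 and LOC4352856 on chromosome 12, and LOC4343252 with LOC9271834 and LOC4343273 with LOC4343276 on chromosome 7.

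**Figure D3:**
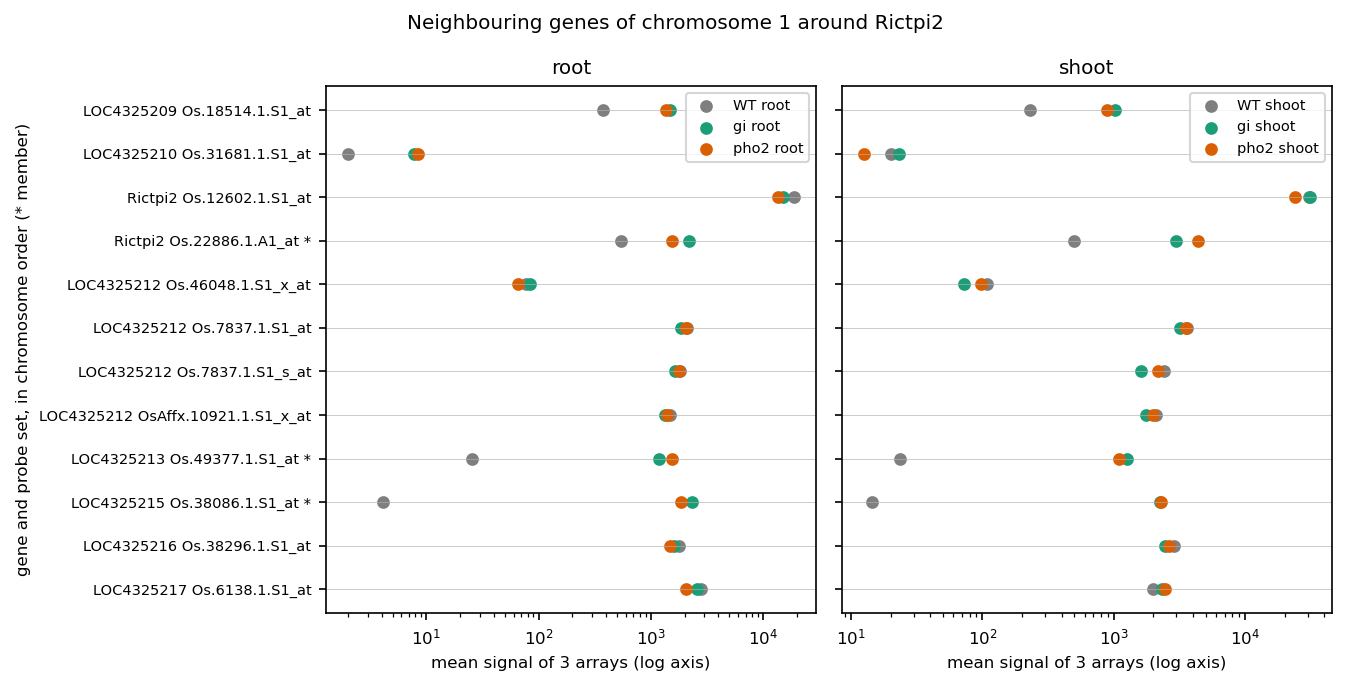
Mean signal of 3 arrays (horizontal, log axis) in root (left) and shoot (right) for the probe sets of consecutive genes around Rictpi2 on chromosome 1, top to bottom in chromosome order; asterisks mark members. The members and LOC4325209 separate mutants from WT in both organs, while LOC4325212 and LOC4325216 in the same stretch have the 3 genotypes close together.

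Other members of this pattern carry no gene name. LOC4340325 read 26.5, 42.4 and 36.1 in WT root, 1103, 1412 and 1629 in gi root and 1561, 1741 and 1826 in pho2 root, with root changes of 4.77 ± 0.16 and 5.09 ± 0.16 (limma adjusted p 1.4e-07 and 8.3e-08). In shoot it read 29.5, 65.4 and 62.6 in WT, 1041, 1208 and 1171 in gi and 589, 460 and 539 in pho2, every gi array above every pho2 array. Another probe set of LOC4340325 moved little, averaging 211 in WT root, 223 in gi root and 188 in pho2 root. In shoot that probe set averaged 243 in WT, 269 in gi and 244 in pho2, so the gene's probe sets disagree.

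A member with no gene in the tables had the largest mean shoot change of all members (6.34 in gi and 6.27 in pho2). It read 4.57, 11.6 and 3.97 in WT root, 336, 513 and 503 in gi root and 576, 583 and 740 in pho2 root, and its root changes were 4.35 ± 0.20 and 4.84 ± 0.20 (limma adjusted p 2.2e-06 and 9.9e-07). Another of the 10 members with the largest mean shoot change, also without a gene, changed by 6.26 ± 0.11 in gi root and 5.79 ± 0.11 in pho2 root (limma adjusted p 5.8e-10 and 1.3e-09). The ID of this probe set shares its stem with that of the LOC4325215 member, so it may not stand for a separate gene. In each of these members without a gene the WT and mutant arrays did not overlap in root. In shoot the rule required the same.

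Lower on the scale, LOC4324525 changed by 3.17 in gi root and 2.73 in pho2 root, LOC4350063 by 1.66 and 1.41, and members without a gene by 3.79 and 4.09, by 2.35 and 3.07 and by 2.06 and 1.95, each called in both by limma (largest adjusted p 0.0022). LOC4350063 is the only one of the 16 that is also root-bright, at 140, 176 and 162 in WT root against 24.5, 6.59 and 4.71 in WT shoot. A further member without a gene was called in gi root and not in pho2 root. It read 30.1, 30.8 and 7.72 in WT root, 1280, 1122 and 1012 in gi root and 40.1, 43.7 and 62.2 in pho2 root, with a change of 4.95 ± 0.26 in gi (limma adjusted p 6.5e-06) and 0.78 ± 0.26 in pho2 (adjusted p 0.068). Compared directly, pho2 root differed from gi root by -4.17 ± 0.26 (limma adjusted p 2.7e-05).

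PIP2-1, a plasma membrane aquaporin, was the other named gene called higher in both roots. Its member probe set read 570, 621 and 529 in WT root, 960, 967 and 717 in gi root and 1104, 1179 and 1341 in pho2 root. The change was 1.05 ± 0.13 in pho2 (limma adjusted p 0.00098) and 0.60 ± 0.13 in gi (adjusted p 0.042). The gi call was lost in 11 of 17 alternative settings (adjusted p up to 0.21), quantile normalization and the fit without WT root replicate 2 among them. A much brighter probe set of the same gene averaged 11409 in WT shoot, 13988 in gi shoot and 13398 in pho2 shoot and was no member.

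The 13 members that were high in WT root replicate 2 formed a pattern of their own. Their median signal was 17.4, 408 and 11 on the WT root arrays, 513, 476 and 458 in gi root, 525, 487 and 433 in pho2 root and 23.9, 43.8 and 53.0 in WT shoot. Replicates 1 and 3 of WT root did not exceed 107, replicate 2 ran from 225 to 3093, and in 9 of the 13 it lay within the range of the 6 mutant root arrays. The WT shoot arrays, replicate 2 included, did not exceed 97.0.

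APG8D, an ATG8-type protein of autophagy, was 1 of the 5 with a gene. It read 7.53, 570 and 2.57 in WT root, 603, 556 and 709 in gi root, 572, 693 and 746 in pho2 root, 23.9, 68.2 and 70.2 in WT shoot, 463, 539 and 629 in gi shoot and 448, 379 and 330 in pho2 shoot. Its root change was 3.32 ± 1.02 in gi (limma adjusted p 0.14) and 3.43 ± 1.02 in pho2 (adjusted p 0.046, lost in 11 of 17 alternative settings, up to 0.15), and 4.93 and 5.03 without replicate 2. LOC9268937, its neighbour, read 488 in WT root replicate 2 and 405 to 525 on the mutant root arrays.

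The brightest of the 13, a member without a gene, read 107, 3093 and 51.4 in WT root, 2552, 2746 and 2503 in gi root and 2090, 2296 and 2123 in pho2 root. With all arrays, limma called 0 of the 13 higher in gi root and 4 in pho2 root, against 1.17% and 7.96% of all probe sets tested. Without replicate 2 the changes ran from 2.23 to 6.05 in gi and from 2.35 to 5.24 in pho2. These 13 were picked for their values on the WT root arrays, which enter both comparisons. Nothing is read from the counts of calls, and no test is given for the 13 as a group. What sets the array apart was not tested.

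**Figure D4:**
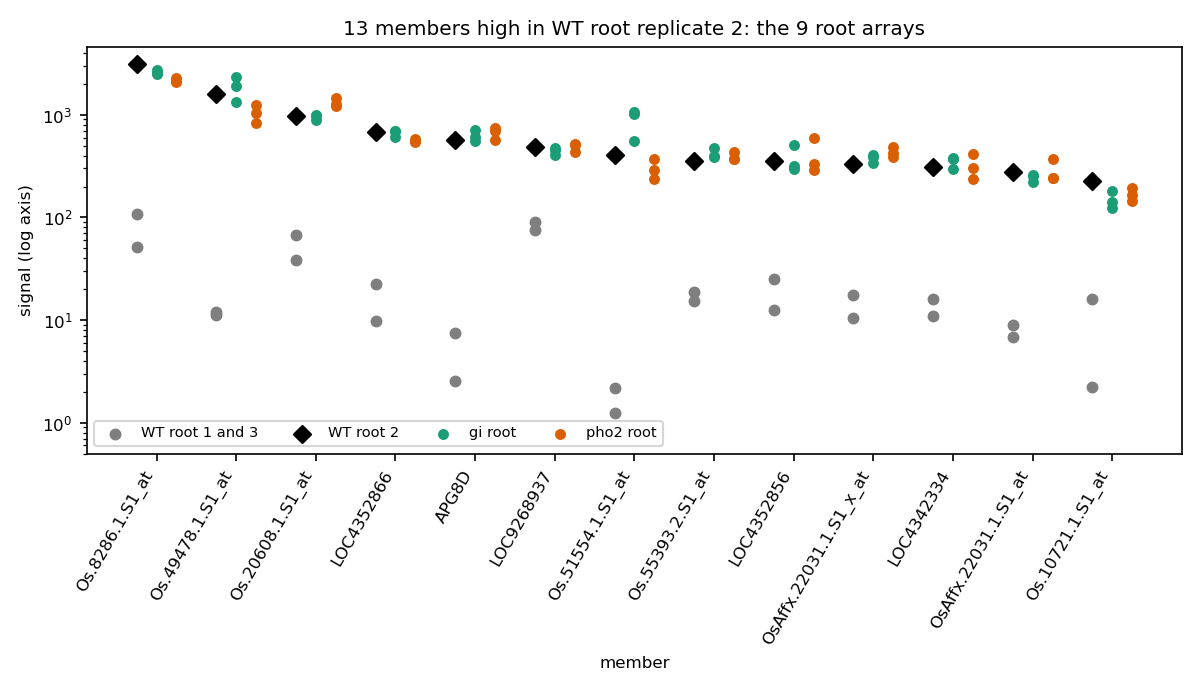
Signal (log axis) on the 9 root arrays of the 13 members at least 4-fold higher in WT root replicate 2 than in both other WT root arrays. The black diamond of replicate 2 sits beside the gi and pho2 root arrays, at 225 to 3093, while WT root replicates 1 and 3 stay at or below 107.

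The jasmonate and WRKY members had a different profile, being already bright in all roots and higher in pho2 shoot than in gi shoot. JAZ11, a jasmonate signalling repressor, read 43.2, 70.4 and 79.7 in WT shoot, 231, 443 and 442 in gi shoot and 4056, 960 and 2812 in pho2 shoot, against 1070, 1132 and 810 in WT root. JAZ12, another repressor of the family, read 96.8, 134 and 142 in WT shoot, 503, 709 and 546 in gi shoot and 1855, 775 and 1274 in pho2 shoot, against 709, 746 and 592 in WT root. In both, every pho2 shoot array lay above every gi shoot array, and pho2 shoot replicate 2 was the lowest of its group.

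Root of JAZ11 was not called in either mutant, at 0.20 ± 0.17 in gi (limma adjusted p 0.62) and 0.40 ± 0.17 in pho2 (adjusted p 0.15). JAZ12 was called in pho2 root, at 0.51 ± 0.12 (adjusted p 0.016), and not in gi root, at 0.38 ± 0.12 (adjusted p 0.15). The pho2 call was lost under median centring, in a fit of all 18 arrays, and without WT root replicate 3 or pho2 root replicate 1 (largest adjusted p 0.18).

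WRKY76 read 91.8, 151 and 119 in WT shoot, 434, 510 and 744 in gi shoot and 3468, 2766 and 2848 in pho2 shoot, with no overlap between gi and pho2. In root it read 2883, 2426 and 2527 in WT, 2474, 2730 and 3224 in gi and 4344, 3435 and 2755 in pho2, and neither mutant was called (limma adjusted p 0.80 and 0.10). Its pho2 shoot range overlapped its WT root range.

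The wider gene lists give the surroundings of these members; the lists were chosen with results of these data known. Apart from JAZ11 and JAZ12, 32 jasmonate genes were tested in shoot, of which limma called 10 higher (6 under median centring) and 5 lower in gi and 12 higher and 7 lower in pho2, where all probe sets gave 8.98% higher and 8.56% lower in gi and 14.4% and 14.2% in pho2. JAZ7 rose by 1.35 in gi shoot and 1.35 in pho2 shoot (limma adjusted p 9.5e-05 and 4.4e-05). OPR10, of the oxophytodienoate reductase family, rose by 1.76 and 3.49 (adjusted p 0.0076 and 4.2e-05). COI1B, of the jasmonate receptor family, fell by 0.66 in gi shoot and fell by 0.87 in pho2 shoot (adjusted p 0.00013 and 8.9e-06). In root, 2 of the 34 tested were higher and 1 lower in gi, and 8 higher and 1 lower in pho2, a count of 8 that was 4 under median centring.

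Of 5 other WRKY genes tested in shoot, 1 was called higher and 1 lower in gi and 3 higher and 1 lower in pho2. WRKY62 rose by 1.77 in gi shoot and 3.39 in pho2 shoot (limma adjusted p 0.0029 and 1.7e-05), while WRKY24 rose by 1.40 in pho2 shoot (adjusted p 0.00071) and differed by -0.08 in gi shoot (adjusted p 0.86). In pho2 root 2 of the 5 were called higher, a count that fell to 1 under quantile normalization and to 0 under median centring, the list's own member included.

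SGR, the stay-green protein that removes magnesium from chlorophyll during leaf yellowing, was a member through both probe sets. One read 30.5, 42.9 and 34.2 in WT shoot, 197, 246 and 318 in gi shoot and 969, 339 and 585 in pho2 shoot, and the other 131, 221 and 155, then 539, 842 and 915, then 2956, 803 and 1631. In the former, every pho2 array lay above every gi array, and in the latter pho2 shoot replicate 2 fell inside the gi range. Both read 915 or more on every root array, and limma called neither in root (smallest adjusted p 0.62).

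Of 8 other leaf senescence genes tested in shoot, 1 was called in gi, higher (2 under quantile normalization), and 4 higher and 1 lower in pho2. RCCR1, a red chlorophyll catabolite reductase, rose by 1.07 in gi shoot and 2.13 in pho2 shoot (limma adjusted p 0.0023 and 9.9e-06), and OSL2 rose by 0.84 in pho2 shoot (adjusted p 0.0014). The 10 photosynthesis genes tested in shoot had 1 call higher and 2 lower in gi and 9 calls in pho2, all lower, against 2 calls lower under quantile normalization and 8 under median centring. Their summed signal was 273770 to 328481 in WT shoot, 258333 to 322653 in gi shoot and 194437 to 246640 in pho2 shoot. Whether these moved with the members for a common reason was not tested.

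The salt-induced lectin gene salT read 91.7, 153 and 60.6 in WT shoot, 571, 1068 and 468 in gi shoot and 449, 625 and 518 in pho2 shoot. In root it was brighter and variable, at 4502, 3748 and 6753 in WT, 7967, 7718 and 3461 in gi and 19233, 4745 and 5119 in pho2, with no call. It belongs to both the defence and the LEA lists. Of 24 other defence genes tested in shoot, 5 were called in gi, all higher, and 7 higher and 6 lower in pho2. CH16 rose by 1.74 and 4.22 (limma adjusted p 0.0077 and 1e-05), PAL, a phenylalanine ammonia-lyase, by 1.74 and 1.54 (7e-05 and 7.3e-05), and PBZ1, a PR10 protein, rose by 1.27 in gi shoot and fell by 2.29 in pho2 shoot (0.0018 and 1.5e-05).

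Among 7 other late embryogenesis abundant (LEA) and dehydrin genes tested in shoot, which protect cells during drying, 1 was called in gi and 6 in pho2, all higher. LEA19 rose by 6.47 in pho2 shoot (limma adjusted p 1.1e-05) and RAB21 by 5.22 (adjusted p 6.7e-05), while in gi shoot they differed by 1.03 and 1.80 without a call (adjusted p 0.27 and 0.065). They missed the rule through gi shoot.

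Members of the cell wall and cytoskeleton were root-bright genes. TUB8, a beta-tubulin, read 54.7, 75.3 and 64.1 in WT shoot, 773, 1367 and 297 in gi shoot and 560, 943 and 903 in pho2 shoot, against 11862, 10052 and 10724 in WT root. EXPB3, a beta-expansin that loosens cell walls, read 800, 656 and 429 in WT shoot, 4434, 6705 and 1775 in gi shoot and 1804, 2877 and 3332 in pho2 shoot, against 5837, 5570 and 6366 in WT root. BC1, the COBRA-like protein of the brittle culm mutant, read 12.8, 30.1 and 10.3 in WT shoot, 296, 211 and 84.8 in gi shoot and 89.6, 147 and 132 in pho2 shoot, against 1822, 995 and 1823 in WT root. In all 3 genes gi shoot replicate 3 was the lowest gi shoot array, and limma called none of them in either root (smallest adjusted p 0.054).

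BC1 was the exception without WT root replicate 2, where pho2 root was called lower at -1.05 (limma adjusted p 0.019) instead of -0.76 ± 0.26 (adjusted p 0.071).

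The phenylpropanoid members were CHS1 and ROMT-17. CHS1, a chalcone synthase at the entry to flavonoids, read 308, 316 and 248 in WT shoot, 3655, 6501 and 1031 in gi shoot and 1200, 3778 and 4455 in pho2 shoot. ROMT-17, annotated as an O-methyltransferase by name, read 240, 216 and 186 in WT shoot, 1086, 1229 and 816 in gi shoot and 1046, 1214 and 1132 in pho2 shoot. The rule itself put the 6 mutant shoot arrays above WT for both, and gi shoot replicate 3 was the lowest gi array in each. In pho2 root their changes were -0.76 ± 0.29 and -1.45 ± 0.47, with no call (limma adjusted p 0.10 and 0.062). Other probe sets of both genes did not meet the rule and differ in the size of the change. For ROMT-17 their shoot changes in gi and pho2 were 1.85 and 1.23, 0.88 and 0.41, and 0.09 and -0.08. For CHS1 they were 1.12 and 0.01, 0.94 and 1.09, 0.56 and 0.45, and -0.003 and 0.76.

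GER5, a germin-like protein, and PXG, a peroxygenase, were off in root in every genotype. GER5 read 60.8, 49.1 and 9.68 in WT shoot, 1140, 1413 and 152 in gi shoot and 190, 943 and 1039 in pho2 shoot, and at most 46.1 on any root array. PXG read 22.1, 17.8 and 15.1 in WT shoot, 162, 220 and 291 in gi shoot and 1262, 376 and 814 in pho2 shoot, and at most 49.4 on any root array. In GER5 a single array in each mutant shoot was far below its fellows, and in PXG all pho2 shoot arrays lay above all gi shoot arrays.

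**Figure D5:**
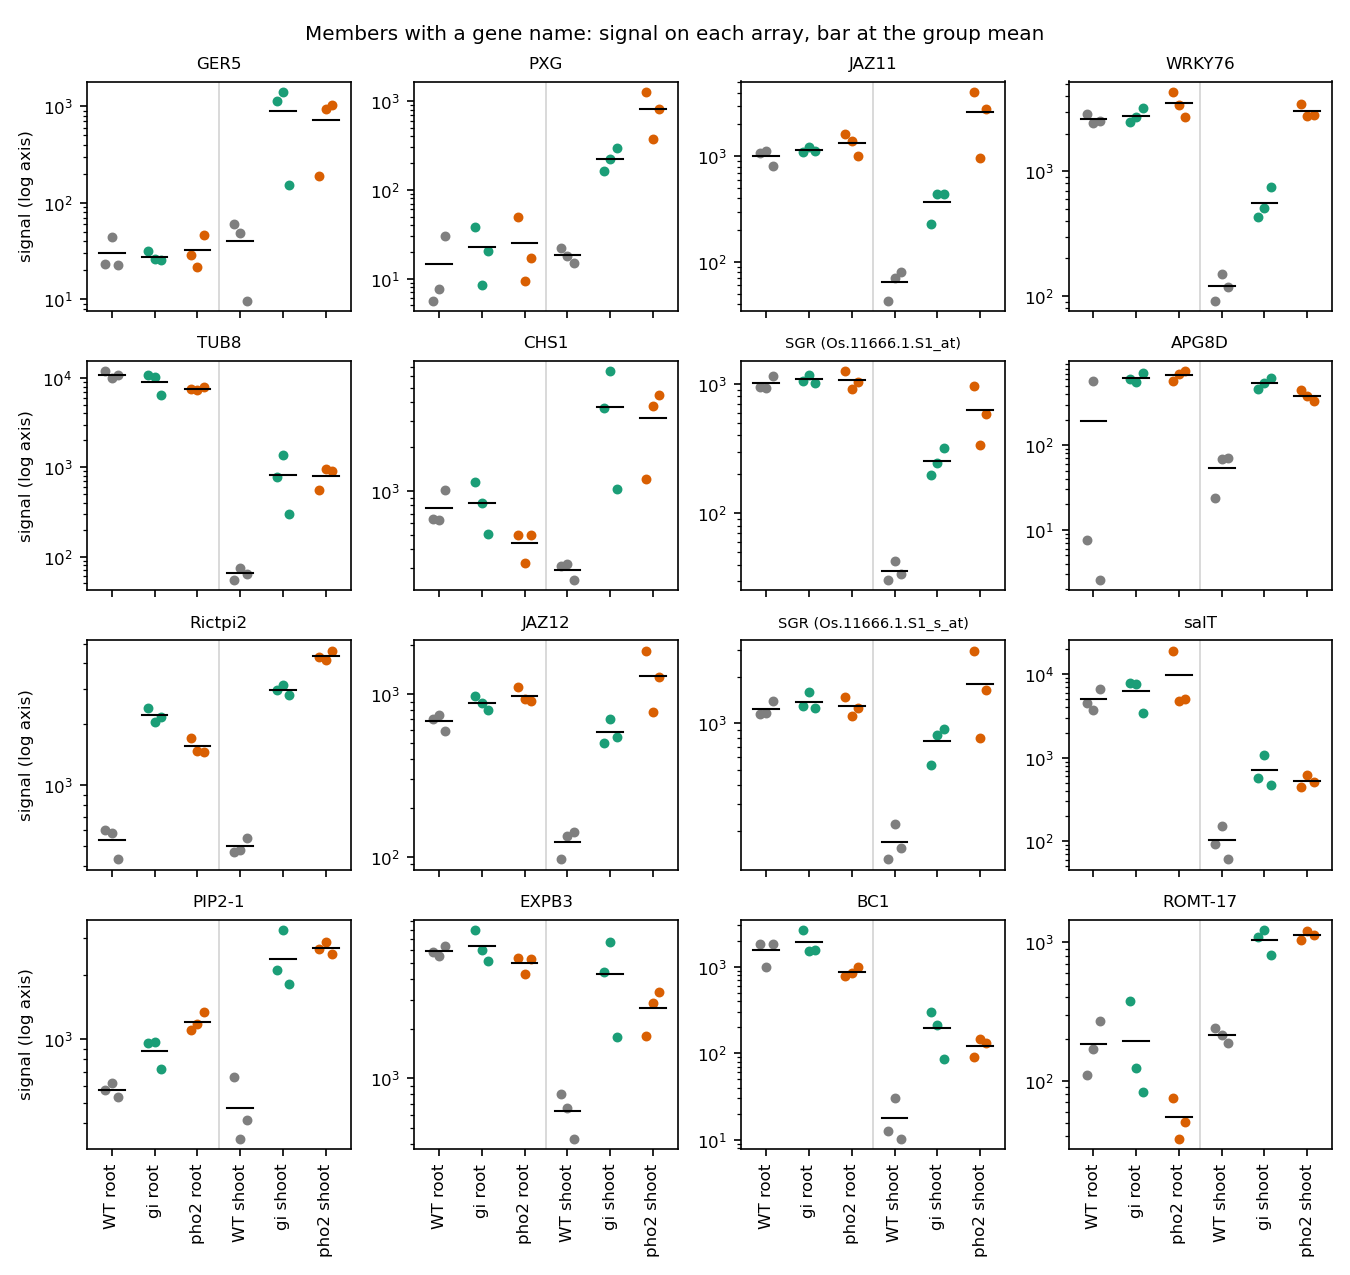
Signal (log axis) on each of 3 arrays in the 6 groups for the 16 probe sets of the 15 named member genes, with a bar at the group mean. JAZ11, JAZ12, WRKY76 and TUB8 are dimmest in WT shoot, and GER5 and PXG are dim in all roots. The member probe set of Rictpi2 is higher in the mutants in both organs, unlike the gene's brighter probe set, which is not shown.

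The shoot levels of the mutants are set side by side without a test. In 128 members the mean levels lay within 1 on the log2 scale, in 27 pho2 was more than 1 above gi and in 15 gi was more than 1 above pho2. All pho2 shoot arrays lay above all gi shoot arrays in 20 members (12.2% of all probe sets) and below in 22 (12.1%). These are shoot values that the rule used, and nothing is read from the shares.

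The widest gap towards gi was in LOC4351887, which was a member through both of its probe sets. One read 2.56, 8.69 and 231 in WT shoot, 4391, 10430 and 16155 in gi shoot and 4225, 482 and 474 in pho2 shoot, and at most 11.9 on any root array. A member without a gene read 119, 208 and 256 in WT shoot, 5023, 6411 and 4867 in gi shoot and 1505, 1064 and 1096 in pho2 shoot. Groups were tight in the latter, while in LOC4351887 WT shoot replicate 3 and pho2 shoot replicate 1 stood above their fellows.

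Towards pho2 the widest gaps were in probe sets without a gene. One read 51.7, 62.1 and 445 in gi shoot and 2886, 582 and 1259 in pho2 shoot, the next 133, 168 and 523 against 2765, 1794 and 2356, and the last 182, 206 and 1022 against 3573, 2175 and 2932. In all 3 gi shoot replicate 3 was the highest of its group. WT shoot signals were at most 52.7 in these probe sets, and their WT root signals were 239 to 2861.

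Among the members of largest mean shoot change, LOC4336415 was bright in WT root, at 2719, 2419 and 2725, and went from 72.4, 90.6 and 110 in WT shoot to 3379, 4888 and 2900 in gi shoot and 2714, 2482 and 2578 in pho2 shoot. Its pho2 root change was 0.57 ± 0.12 (limma adjusted p 0.01). A pair of members without a gene are among the 13 high in WT root replicate 2 (972 and 1608 there), and their shoot changes were 5.39 and 4.93 in gi and 5.66 and 4.81 in pho2. LOC4342334, also among the 13 high in WT root replicate 2, read 80.0, 97.0 and 72.6 in WT shoot, 2492, 2610 and 2974 in gi shoot and 3301, 2639 and 2836 in pho2 shoot.

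Root of the mutants was also compared directly. Limma called 3 members higher and 17 lower in pho2 root than in gi root, against 3.91% and 3.63% of all probe sets tested. Of the 17, 8 were also called lower in pho2 root than in WT and 5 higher in gi root than in WT. The count of 17 fell to 6 under median centring and to 8 without pho2 root replicate 1 or without pho2 root replicate 2.

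The largest falls in pho2 root were in a member without a gene, by 2.23, in LOC4335515, by 1.77, and in LOC4329826, by 1.55, on the log2 scale. Another member without a gene read 7939, 6289 and 7963 in WT root, 10226, 7861 and 8615 in gi root and 3697, 3099 and 3929 in pho2 root, a change of -1.04 ± 0.13 in pho2 (limma adjusted p 0.00097) and 0.27 ± 0.13 in gi (adjusted p 0.33). The same probe set went the other way in shoot, from 2.03, 7.39 and 27.4 in WT to 671, 715 and 244 in gi and 90.8, 344 and 319 in pho2. By contrast a member without a gene was higher in pho2 root, at 3210, 2964 and 2306 against 961, 919 and 994 in WT, a change of 1.53 ± 0.12 (adjusted p 8.1e-05), and LOC4336875 rose by 1.09 ± 0.19 (adjusted p 0.0048).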

How the data were processed

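Total RNA of root and shoot was extracted with an RNeasy kit and hybridised to Affymetrix rice arrays, per the labels' protocols. The deposited values are intensity per probe set on a linear scale, made with MAS5 per the submitters' processing notes, which give no version or settings. Array number limits the precision. No arrays were identical, and all value columns were used. The 123 control probe sets were left out. Values were used as log2(signal + 16), which understates changes of dim probe sets.

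The 9 root arrays were fitted with limma 3.58.1 (R 4.3.3; lmFit, eBayes), and the 9 shoot arrays likewise for the gene lists, after leaving out probe sets with a mean below the 40th percentile. Tests were two-sided, with Benjamini-Hochberg adjustment and a threshold of 0.05. The code was tested on simulated data. Genes were paired through the array's platform annotation and RefSeq; list genes were read by their brightest probe set.

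The members and the gene lists (jasmonate, WRKY, leaf senescence, defence, LEA, root markers, photosynthesis) were chosen with earlier results of these data known. Named are GI; members with a gene name; the 10 with the largest mean shoot change; up to 15 with the smallest root p; the 3 nearest each side of the threshold; up to 4 called genes of each list that holds a member; the 3 widest gaps between mutants each way; the 3 brightest in WT root; others were chosen after their values were seen. Members that pair with no gene are described by their values and not by probe set ID.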

Additional observations from a re-analysis of the deposited data

Results flagged for a closer look

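In 15 members the pho2 root arrays all lay below the WT root arrays with a limma call, while all mutant shoot arrays lay above the WT shoot arrays. These were 10% of the members tested, against 7.87% of all probe sets tested that were called lower in pho2 root. That background counts calls alone, without the no-overlap condition. The shoot direction was fixed by the choice of members, and the difference between root and shoot was not tested. In pho2 root the log2 changes were -1.77 for LOC4335515, -1.55 for LOC4329826, -0.95 for LOC4350662 and -0.88 for LOC4327285, and -2.23, -1.04, -0.85 and -0.65 for 4 members without a gene. They were smaller for LOC4325373 (-0.55), LOC4344091 (-0.52), LOC4337725 (-0.45), LOC4345164 (-0.43), LOC4325311 (-0.39), LOC4339617 (-0.30) and LOC4330177 (-0.29). In gi root the same held for LOC4327285 (-0.66) and for the member without a gene at -0.65 in pho2 (-0.49). In shoot these members stood 2.03 to 4.92 above WT in the same mutant. WT root replicate 2 was the highest WT root array in the member at -2.23 (391, 865 and 253) and in LOC4335515 (664, 1686 and 478). A fit of all 18 arrays called 4 members lower in pho2 root, of which 3 are among the 15 called lower in the fit of root arrays. Of 17 alternative settings, the pho2 call was lost in 11 for LOC4339617 and in 8 for LOC4337725 (limma adjusted p up to 0.65 and 0.55). The other pho2 calls of the 15 were lost in 0 to 4 settings. The gi call was lost in 8 for the member without a gene and in 5 for LOC4327285 (limma adjusted p up to 0.40 and 0.67).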

How the results depend on the processing

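The rule found 353 probe sets with a pseudocount of 1, 76 with 64, 833 at 2-fold, 282 and 277 from replicate number 1 or 3 alone, and 161 to 188 with 1 shoot array left out. Leaving out 1 root array in turn gave 13 to 36 members called higher and 0 to 3 lower in gi root, 21 to 43 higher and 11 to 26 lower in pho2 root, 12 to 32 higher in both, and 3 to 6 higher and 8 to 29 lower in pho2 than in gi root. The upper ends of the higher calls came without WT root replicate 2 (36, 43 and 32), those of the lower calls without gi root replicate 1 (26 in pho2) or gi root replicate 3 (29 in pho2 against gi). All probe sets called numbered 313 to 786 in gi root and 3385 to 5797 in pho2 root when 1 array was left out. Members lower in gi root numbered 1 without the filter and 0 in a fit of all 18 arrays, which called 4 lower in pho2 root, 3 of them among the 15 called lower in the fit of root arrays. For pho2 against gi root, 5 (pseudocount 64), 0 (all 18 arrays) and 6 (array weights) were higher, and 6 (median centring), 11 (no filter) and 6 (all 18 arrays) were lower. With the replicate number as a block, 17 members were called higher and 5 lower in gi root and 31 higher and 18 lower in pho2 root; same-numbered samples did not deviate together (correlations of -0.11 to 0.11 in root and -0.06 to 0.03 in shoot), so the numbers were not taken as pairs. The cause of these shifts was not tested. Of 49 called root changes of single members, 27 kept their call in every alternative run, and 0 reversed; 20 of 57 uncalled ones gained a call in at least 1. Of 128 gene list counts, 29 moved by over 1.5 times under quantile normalization or median centring. Signal near background limits the dim members: 20 were not tested in root.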
